A study of Mus musculus with 12 samples.

Results

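Mitochondrial DNA (mtDNA) is the small circular genome kept inside mitochondria. Its genes were taken from the deposited expression tables as every entry whose symbol starts with mt-, which gave 37 of the 39174 gene identifiers. They comprise 13 protein-coding genes, 2 ribosomal RNA (rRNA) genes and 22 transfer RNA (tRNA) genes. The circle is transcribed from both strands as long precursors, and tRNAs that lie between the other genes mark where the precursors are cut. The proteins are core subunits of respiratory complexes I, III, IV and V, which are completed by subunits encoded in the nucleus and supply neurons with most of their ATP. Transcription depends on the nuclear-encoded polymerase Polrmt with Tfam and Tfb2m, and the messenger RNAs are held stable by Lrpprc and Slirp.

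The 12 libraries were RNA sequencing libraries of primary motoneuron cultures from FVB mice, 3 in each of 4 groups. SMA cultures (Smn-/-;SMN2, a mouse model of spinal muscular atrophy) were treated with 0.5 µM R-Roscovitine or left untreated, and so were control cultures (Smn+/+;SMN2). All 4 groups carry the SMN2 transgene and differ in mouse Smn and in R-Roscovitine, a kinase inhibitor that also acts on presynaptic calcium channels. No label ties a library to its own animal or culture, so the p-values measure how far these libraries spread, and some of that spread may be technical.

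Expression is given as FPKM, fragments per kilobase of transcript, scaled to sequencing depth, which is a level per length. Depth, estimated from low FPKM, was 19.5 to 25.2 M (10⁶) fragments in SMA libraries and 23.3 to 28.7 M in control libraries. The motoneuron label was checked against 14 markers: 7 of the 13 found in the tables (Mnx1, Chat, Isl1, Isl2, Lhx3, Lhx4 and Slc5a7) were under 1 FPKM in every library, and Slc18a3 was not analysed here. The summed motoneuron markers were 39.1 to 46.2 FPKM in SMA and 46.0 to 56.0 FPKM in control libraries with R-Roscovitine, and 38.6 to 40.9 FPKM in SMA and 50.0 to 56.2 FPKM in control libraries without it. Pan-neuronal markers summed to 841 FPKM or more in every library. In such bulk samples fewer cells of a type and less RNA per cell cannot be told apart.

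Several mtDNA genes share bases with a neighbour, so their reads cannot always be assigned to 1 gene. The sequences below (GENCODE M21 transcripts, build GRCm38, 5′ to 3′) show the 3 overlaps between protein-coding genes that bear on the levels of mt-Atp8, mt-Nd4l and mt-Nd6. Capitals mark the bases that lie in both genes, and for the oppositely transcribed mt-Nd5 and mt-Nd6 the bases that face each other. mt-Atp8 is shown whole at chrM:7766-7969 (+ strand), and the first 120 bases of mt-Atp6 at chrM:7927-8046 (+ strand). The end of mt-Nd4l is at chrM:10114-10173 and the start of mt-Nd4 at chrM:10167-10226 (both + strand). The end of mt-Nd5 is at chrM:13506-13565 (+ strand) and the end of mt-Nd6 at chrM:13552-13611 (- strand).
mt-Atp8: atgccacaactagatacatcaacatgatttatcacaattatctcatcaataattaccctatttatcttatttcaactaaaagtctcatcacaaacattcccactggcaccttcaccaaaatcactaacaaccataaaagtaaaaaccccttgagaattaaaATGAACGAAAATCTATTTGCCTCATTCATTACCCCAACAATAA
mt-Atp6: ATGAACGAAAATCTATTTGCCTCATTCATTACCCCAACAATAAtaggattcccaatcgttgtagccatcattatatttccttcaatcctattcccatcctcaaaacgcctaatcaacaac
mt-Nd4l: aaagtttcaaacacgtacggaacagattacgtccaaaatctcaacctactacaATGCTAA
mt-Nd4: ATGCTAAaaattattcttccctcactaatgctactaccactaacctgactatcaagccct
mt-Nd5: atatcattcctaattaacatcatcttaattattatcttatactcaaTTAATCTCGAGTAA
mt-Nd6: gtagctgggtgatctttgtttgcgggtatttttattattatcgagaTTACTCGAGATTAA

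The overlap is 43 bases for mt-Atp8 and mt-Atp6, 7 bases for mt-Nd4l and mt-Nd4, and 14 bases for mt-Nd5 and mt-Nd6. The strand setting of the counting is not given in the sources used here, so fragments of the mt-Nd5 and mt-Nd6 ends could not be told apart by strand. For the same reason, fragments from the strand opposite any mtDNA gene could not be separated from those of the gene.

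The 13 protein-coding genes were among the most abundant transcripts of these cultures. Between 10 and 11 of them stood among the 13 highest features in each library, and all 13 stood within the top 22 of each. Together they took 22.97%, 19.70% and 19.36% of the library's FPKM sum in SMA libraries 1, 2 and 3 with R-Roscovitine, and 22.20%, 18.73% and 19.79% in those without it. Control libraries 1, 2 and 3 held 19.86%, 20.73% and 19.49% with R-Roscovitine and 17.28%, 18.84% and 18.02% without it. The first SMA library was the highest of its group in both treatments, and the 3 untreated control libraries lay below every R-Roscovitine-treated library of either genotype. Multiplied by locus length, which gives a share of fragments, the 13 genes took 12.0% to 16.8%. The 2 rRNA genes accounted for 0.330% to 0.706% of the FPKM sum, the 22 tRNA genes for 0.0426% to 0.0834%.

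**Figure D1:**
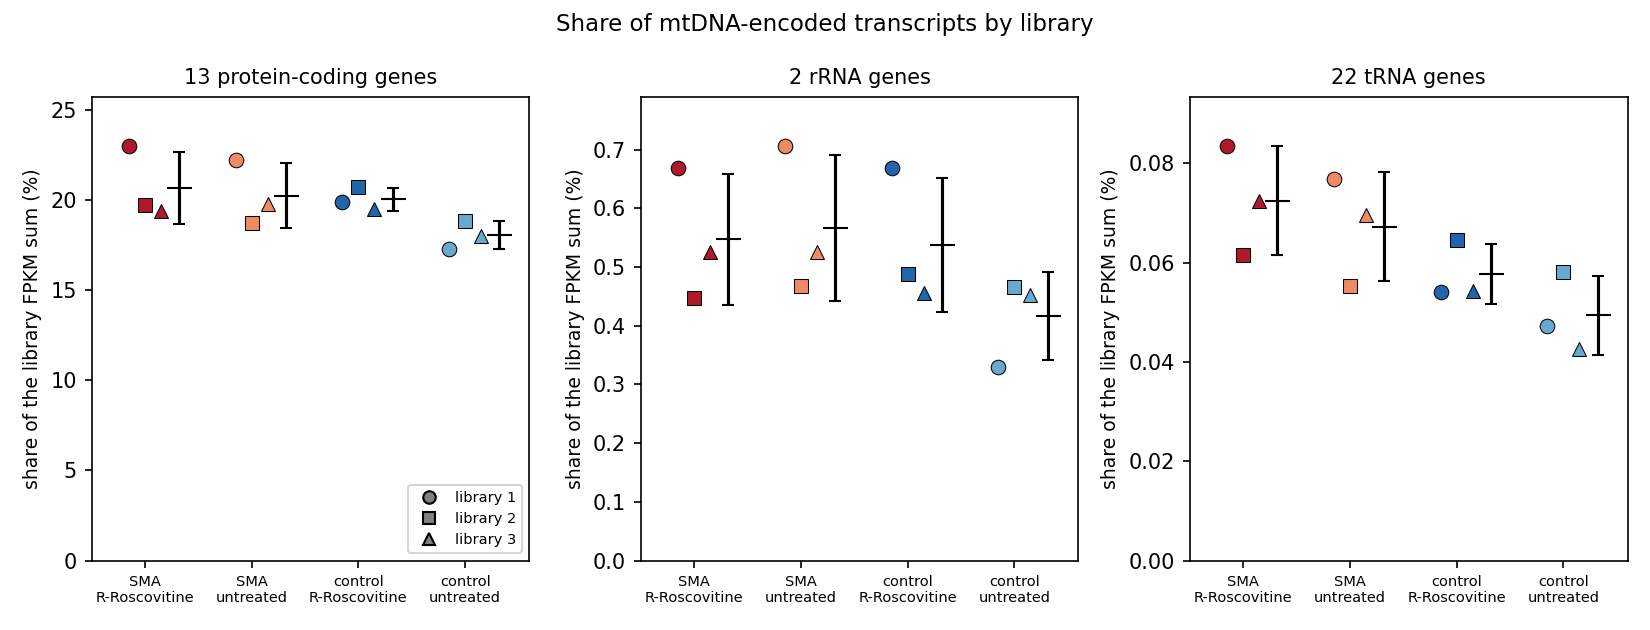
Share of the library FPKM sum (%, y axis) taken by the 13 protein-coding, 2 rRNA and 22 tRNA genes of mtDNA in each of 12 libraries (x axis, 4 groups of 3; marker shape gives the library number; black bars are mean ± SD, n = 3). SMA library 1 has the highest protein-coding share in both treatments, at 22.97% with R-Roscovitine and 22.20% without, and untreated control libraries lie between 17.28% and 18.84%.

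Levels differed more between genes than between libraries. mt-Co1, the catalytic subunit of cytochrome c oxidase (complex IV), had the highest mean over the 12 libraries, 23465 FPKM, followed by mt-Co3 of the same complex at 20695 FPKM. mt-Nd1, a complex I subunit, and mt-Atp6, a proton-channel subunit of ATP synthase (complex V), followed at 17869 and 17531 FPKM and kept this order in only 8 of 12 libraries. mt-Cytb, the one complex III subunit made in mitochondria, and mt-Co2 averaged 12544 and 12309 FPKM and were in this order in 7 of 12 libraries. mt-Nd4 stood at 10916 FPKM, above mt-Atp8 at 5160 FPKM in 12 of 12 libraries. The remaining complex I genes ran from mt-Nd5 at 4892 FPKM (below mt-Atp8 in 10 of 12 libraries) through mt-Nd2 at 4547, mt-Nd3 at 4050 and mt-Nd6 at 3028 to mt-Nd4l at 2754 FPKM. mt-Nd6, the only protein-coding member on the light strand, was above mt-Nd4l in 9 of 12 libraries. The rRNAs of the small and large mitochondrial ribosomal subunits, mt-Rnr1 and mt-Rnr2, averaged 1833 and 1824 FPKM and changed places in 5 of 12 libraries. The libraries were made with an mRNA-Seq kit, and how fully it captures rRNAs and tRNAs was not tested. The rank of the rRNAs below the messenger RNAs may therefore not hold for their amounts in the cells.

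**Figure D2:**
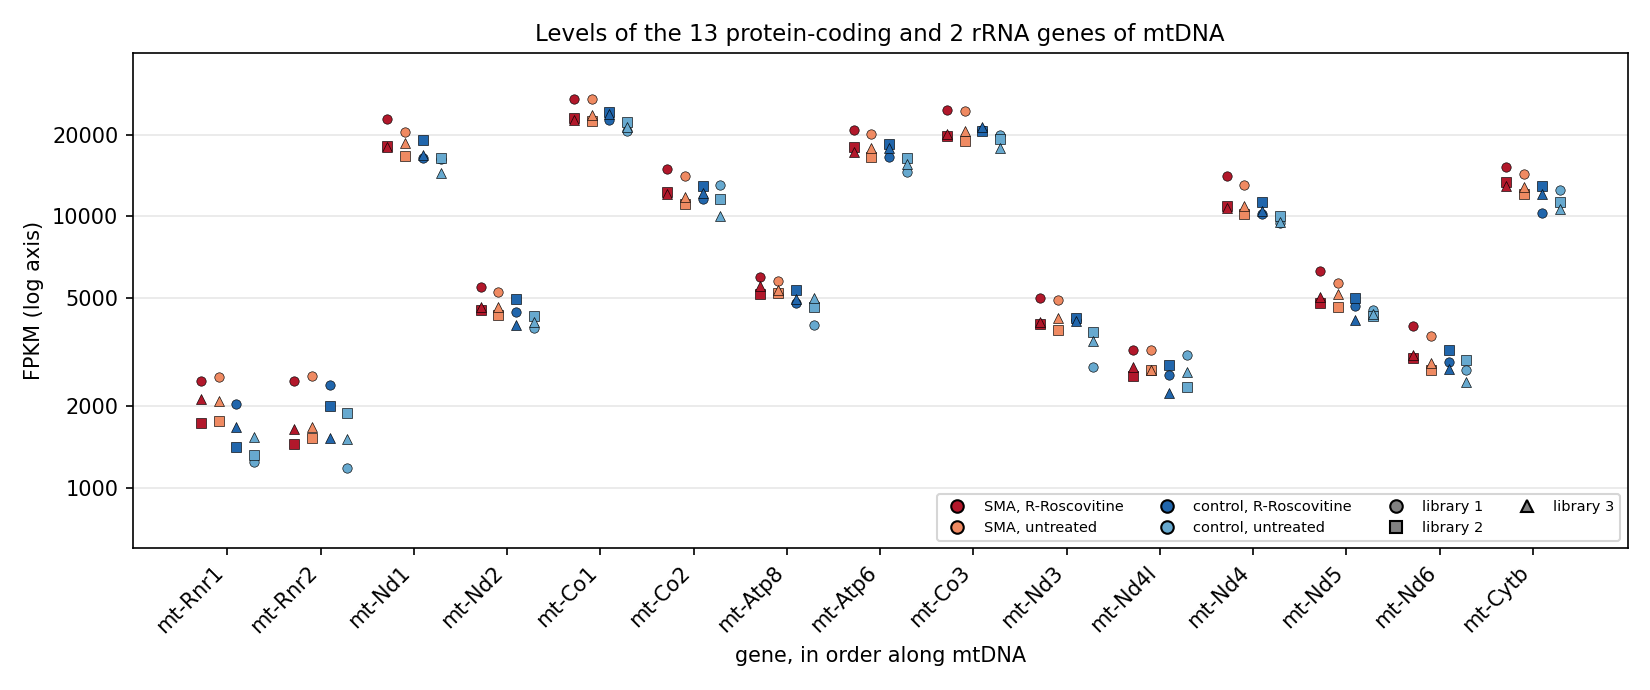
FPKM (y axis, log scale) of the 13 protein-coding and 2 rRNA genes in order along mtDNA (x axis); each point is 1 of 12 libraries, with colour for the group and shape for the library number. Gene levels range from a mean of 23465 FPKM (mt-Co1) to 1824 FPKM (mt-Rnr2), and SMA library 1 tops its group for all 15 genes in both treatments.

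The genes varied in common across libraries. The coefficient of variation of FPKM over the 12 libraries was 8.49% to 14.6% for the protein-coding genes, and 23.5% and 24.8% for mt-Rnr1 and mt-Rnr2. As a share of the 13-gene sum it was 2.80% (mt-Nd4) to 10.03% (mt-Nd4l). Of the 15 long genes, SMA library 1 was the highest of its group for 15 of 15 with R-Roscovitine and for 15 of 15 without it. The highest of all 12 libraries was SMA R-Roscovitine library 1 for 11 genes and untreated SMA library 1 for 4. The lowest was untreated control library 1 for 8 genes. That library also had an unusual mix. mt-Co2 made up 10.2% of its 13-gene sum against at most 8.97% elsewhere, and mt-Nd3 made up 2.18% against at least 2.85% elsewhere.

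SMA and control cultures were first compared without R-Roscovitine. The share of the 13 protein-coding genes averaged 20.24% ± 1.78 in SMA and 18.05% ± 0.776 in control libraries (SD, n = 3 each), a difference of 2.19 percentage points. The groups overlapped, since SMA library 2 (18.73%) lay below control library 2 (18.84%), and an exact two-sided permutation test gave p = 0.2 (3 against 3 libraries cannot go below 0.1). Without SMA library 1 the difference was 1.21 points. Leaving the feature Gm26924 out of the sum, which took 4.68% ± 0.169 in SMA and 3.38% ± 0.499 in control libraries (SD, n = 3 each), gave a difference of 2.56 points with groups that did not overlap.

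Gene by gene, limma on log2(scaled FPKM + 1) over 14954 features called none of the 15 long members at an adjusted p under 0.05 in untreated SMA against control cultures, where 0.0% of all features were called higher and 0.00669% lower. At an unadjusted p under 0.05 there were 3 of 15 members, against 14.1% of all features. The log2 differences were above 0 for 15 of 15 members, with a median of 0.26, against 49.0% of all features and a median of -0.01. The FPKM of 9 of 15 members did not overlap between the genotypes and were higher in SMA, against 7.78% of all features. Because the members rise and fall together from library to library, these counts are not 15 separate observations. Without SMA library 1 the median was 0.15.

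mt-Rnr1, the small-subunit rRNA (955 bases at chrM:70-1024, + strand), had the largest log2 difference of these members. It read 2572, 1758 and 2083 FPKM in untreated SMA libraries 1, 2 and 3, against 1250, 1319 and 1542 FPKM in untreated control libraries. Every SMA library stood above every control library. The log2 difference was 0.67 ± 0.18 (SE), with an unadjusted p of 0.0027 and an adjusted p of 0.216 (limma). Its neighbour mt-Rnr2 (1582 bases at chrM:1094-2675, + strand) read 2585, 1531 and 1672 FPKM in SMA and 1182, 1892 and 1514 FPKM in control libraries, which overlapped.

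mt-Nd3, a small complex I subunit, read 4940, 3826 and 4220 FPKM in untreated SMA libraries and 2785, 3770 and 3471 FPKM in untreated control libraries. The groups did not overlap, with control library 1 far below the other two. The log2 difference was 0.42 ± 0.15 (SE), adjusted p = 0.274 (limma). mt-Atp8, an accessory subunit of ATP synthase, read 5799, 5235 and 5372 FPKM in SMA and 3992, 4658 and 4989 FPKM in control libraries, again without overlap. Its log2 difference was 0.31 ± 0.12 (SE), adjusted p = 0.289 (limma), and 0.21 without control library 1. The other 12 members had log2 differences of 0.13 to 0.37.

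By complex, the 7 complex I genes took 7.01% ± 0.656 of the FPKM sum in untreated SMA and 6.09% ± 0.309 in untreated control libraries (SD, n = 3 each). The groups did not overlap, and p = 0.1 in the exact permutation test. Complex III (mt-Cytb) took 1.82% ± 0.119 in SMA and 1.64% ± 0.0574 in control, and complex V 3.30% ± 0.220 in SMA and 2.88% ± 0.309 in control, both without overlap. Complex IV took 8.10% ± 0.790 in SMA and 7.43% ± 0.254 in control, with overlap. The 2 rRNA genes took 0.567% ± 0.124 in SMA and 0.416% ± 0.0751 in control, without overlap (exact permutation p = 0.1, Benjamini-Hochberg adjusted p = 0.4 over 12 share tests of 3 gene classes in 4 comparisons). Without untreated SMA library 1 the differences were smaller, at 0.567 in place of 0.920 points for complex I, 0.122 in place of 0.187 for complex III, 0.228 in place of 0.671 for complex IV and 0.0808 in place of 0.151 for the rRNA genes. For complex V the difference was 0.238 points without untreated control library 1, in place of 0.416. Counted as a share of fragments, the 2 rRNA genes did overlap between the genotypes. They took 0.509% ± 0.129 in SMA and 0.373% ± 0.0607 in control libraries (SD, n = 3 each), exact permutation p = 0.2.

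With R-Roscovitine the genotypes were closer in the share of the 13 genes. The 13 genes took 20.68% ± 1.996 in SMA and 20.03% ± 0.641 in control libraries (SD, n = 3 each), with overlap and an exact permutation p of 0.9. The direction of the 0.648-point difference rested on SMA library 1, and without it the difference was -0.50 points. limma again called none of the 15 members (0.0% of all features higher, 0.00669% lower), and 0 had an unadjusted p under 0.05, against 12.9% of all features. 14 of 15 log2 differences were above 0, against 47.1% of all features, with a median of 0.16, and of 0.04 without SMA R-Roscovitine library 1. 1 member did not overlap, mt-Cytb, against 8.9% of all features. It read 15264, 13396 and 12919 FPKM in SMA and 10265, 12908 and 12099 FPKM in control libraries. SMA library 3 and control library 2 were nearly level, and the log2 difference was 0.26 ± 0.13 (SE), adjusted p = 0.435 (limma). The share of mt-Cytb (complex III) differed by 0.214 points, against 0.187 without treatment, so the genotypes were not closer in that share. None of the 15 was non-overlapping in both treatments, against 2.47% of all features.

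R-Roscovitine was then compared with no treatment within each genotype. In control cultures the 13-gene share was 20.03% ± 0.641 with and 18.05% ± 0.776 without R-Roscovitine (SD, n = 3 each), 1.98 points higher. The groups did not overlap, and the treated library was higher in 3 of 3 same-numbered pairs. The exact permutation p was 0.1, the sign-flip p over pairs was 0.25, the smallest that 3 pairs allow, and the Benjamini-Hochberg adjusted p was 0.4. This comparison and the untreated genotype comparison share the 3 untreated control libraries, so a low level in those 3 enters both.

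In control cultures limma called none of the 15 members for R-Roscovitine (0.0% of all features were called in either direction), and 1 had an unadjusted p under 0.05, against 1.26% of all features. The log2 differences were above 0 for 14 of 15, against 50.8% of all features, with a median of 0.16, and of 0.11 without control R-Roscovitine library 2. 5 members did not overlap and were higher with R-Roscovitine, mt-Co1, mt-Atp6, mt-Co3, mt-Nd3 and mt-Nd4, against 1.48% of all features. mt-Co1 read 22705, 24350 and 23846 FPKM with R-Roscovitine and 20651, 22333 and 21446 FPKM without it. The treated library was above the untreated one of the same number in 3 of 3 pairs. mt-Nd3 read 4160, 4231 and 4106 FPKM with R-Roscovitine and 2785, 3770 and 3471 FPKM without it, a log2 difference of 0.36 ± 0.15 (SE), unadjusted p = 0.0365 and adjusted p = 0.9997 (limma). Without untreated control library 1 the difference was 0.22, and with library weights 0.19. mt-Nd4l, a complex I subunit, was the 1 of these 15 below 0, at 2604, 2839 and 2238 FPKM with R-Roscovitine and 3091, 2352 and 2677 FPKM without it, with overlap and a log2 difference of -0.05 ± 0.14 (SE).

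In SMA cultures the 13-gene share was 20.68% ± 1.996 with and 20.24% ± 1.78 without R-Roscovitine (SD, n = 3 each; exact permutation p = 0.7). The 0.437-point difference turned to -0.71 without SMA R-Roscovitine library 1 and to -0.32 without untreated SMA library 2, and was 1.42 without untreated SMA library 1. limma called none of the 15 (0.0% in either direction), none had an unadjusted p under 0.05 (2.41% of all features), and none was free of overlap (6.17% of all features higher). The median log2 difference was 0.04, with 11 of 15 above 0, against 50.4% of all features. The interaction of genotype and R-Roscovitine, the SMA minus the control effect of the compound, had a median of -0.12 over the 15 members. It ran from -0.23 (without SMA R-Roscovitine library 1) to -0.024 (without untreated SMA library 1) when 1 library was left out, and lay over 1.5 times nearer 0 also without control or SMA R-Roscovitine library 2 (-0.045 and -0.049) and further from 0 without untreated control library 2 (-0.17) or untreated SMA library 2 (-0.19). None was called (0.0% of all features in either direction), and none had an unadjusted p under 0.05 (1.89% of all features).

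**Figure D3:**
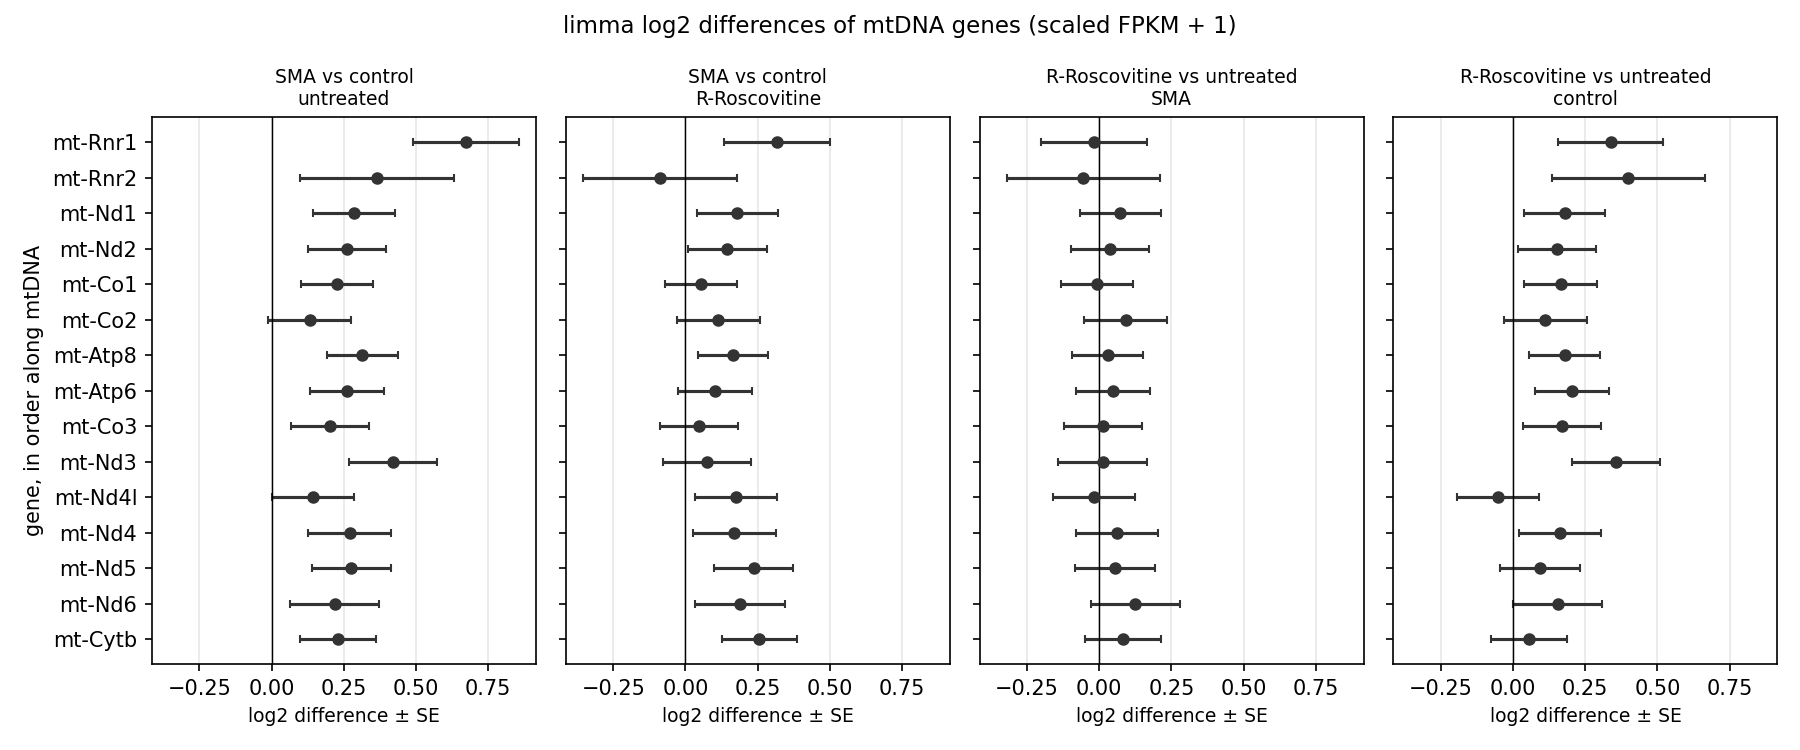
limma log2 difference ± SE (x axis) of 13 protein-coding and 2 rRNA genes (y axis, in order along mtDNA) in 4 comparisons, each panel named with the group on top of the difference first; n = 3 libraries per group. The differences lie between 0.13 and 0.67 for SMA against control without treatment and around 0 for R-Roscovitine in SMA, and none passed an adjusted p of 0.05.

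Averaged over treatments, mt-Rnr1 was the 1 member of 15 called between SMA and control (higher in SMA), against 3.04% of all features called higher and 1.81% called lower. With R-Roscovitine it read 2468, 1733 and 2124 FPKM in SMA and 2045, 1419 and 1677 FPKM in control libraries. SMA library 2 lay below control library 1, so the genotypes overlapped in that treatment. The averaged log2 difference was 0.49 ± 0.13 (SE), adjusted p = 0.0475 (limma). Treated and untreated libraries of the same genotype and number deviate together, and with each such pair averaged to 1 value, 3 against 3, the adjusted p of mt-Rnr1 was 0.192. With pairs averaged 0.0% of all features were called higher and 0.00669% lower, the 1 feature being Smn1, the gene deleted in SMA cultures (log2 difference -2.39). The call was also lost without scaling between libraries (adjusted p = 0.0506) and without SMA library 1 of both treatments, an alternative chosen after seeing the data (adjusted p = 0.182). When 1 library was left out at a time, the call held in 2 of 12 fits, those without SMA library 2 of either treatment, and the adjusted p ran from 0.0193 to 0.120. With mt-Rnr1 among them, 7 of 15 members had an unadjusted p under 0.05 (limma), against 23.3% of all features. All 15 log2 differences were above 0, against 48.3% of all features, with a median of 0.20. R-Roscovitine averaged over genotypes called none (0.0% of all features in either direction), with a median of 0.10 and no unadjusted p under 0.05 (1.62% of all features).

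The tRNA genes are 59 to 75 bases long and had few fragments. mt-Tf, mt-Tk and mt-Tr were listed at 0 in all 12 libraries, and 14 of 22 tRNA genes reached 1 FPKM in at least 3 libraries. mt-Tl1, mt-Ts1, mt-Te and mt-Ta had the highest levels. They decode leucine, serine, glutamate and alanine, and their DNA-encoded sequences are shown because the tRNA results rest on them. mt-Tl1 lies at chrM:2676-2750 (+ strand) between mt-Rnr2 and mt-Nd1. mt-Ts1 lies at chrM:6870-6938 (- strand), with the 3 bases that face the end of mt-Co1 in capitals. mt-Te lies at chrM:14071-14139 (- strand), next to mt-Nd6, and mt-Ta at chrM:5018-5086 (- strand).
mt-Tl1: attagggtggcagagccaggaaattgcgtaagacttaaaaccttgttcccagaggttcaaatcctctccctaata
mt-Ts1: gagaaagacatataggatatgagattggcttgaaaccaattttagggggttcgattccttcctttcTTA
mt-Te: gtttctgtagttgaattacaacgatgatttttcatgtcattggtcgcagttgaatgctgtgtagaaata
mt-Ta: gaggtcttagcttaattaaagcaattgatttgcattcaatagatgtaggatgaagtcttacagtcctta

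In fragments (FPKM times length, divided by the value of 1 fragment), mt-Tl1 had 133 to 275 per library, mt-Te 66.0 to 521, mt-Ts1 134.5 to 308 and mt-Ta 6 to 35.3. The next highest tRNA gene, mt-Tp, reached 16.0 fragments in its highest library. Cufflinks corrects FPKM for locus length, so for loci this short the FPKM of a tRNA gene are compared only across libraries.

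mt-Te was the 1 of 14 tested tRNA genes that was higher in SMA without overlap in both treatments, against 2.46% of all features with loci of every length kept. It read 314, 206 and 180 FPKM in SMA and 139, 164 and 146 FPKM in control libraries with R-Roscovitine. Without R-Roscovitine it read 299, 156 and 225 FPKM in SMA and 34.6, 138 and 86.5 FPKM in control libraries. In neither treatment did the groups overlap, and untreated control library 1 was the lowest of all. With loci of every length kept (15114 features), the log2 difference without treatment was 1.58 ± 0.41 (SE), adjusted p = 0.214 (limma). With R-Roscovitine it was 0.62 ± 0.41 (SE), adjusted p = 0.553. Averaged over treatments it was 1.10 ± 0.29 (SE), adjusted p = 0.0485, and with each pair of libraries averaged the adjusted p was 0.194. The call held in 3 of 12 fits with 1 library left out, those without SMA library 2 of either treatment or untreated control library 2. In the averaged comparison over all 12 libraries, 3 of 29 mtDNA genes were called, mt-Te, mt-Rnr1 and mt-Tn, against 2.79% of all features called higher. mt-Tn rests on 0 to 7 fragments per library.

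mt-Te and mt-Nd6 are neighbours on the light strand, and their ratio was computed after their values were seen. The strand setting is not given, so it is not known whether mt-Te, mt-Ts1, mt-Ta and mt-Nd6 include fragments from the opposite strand. mt-Te over mt-Nd6 was 7.95%, 6.82% and 5.82% in SMA and 4.76%, 5.10% and 5.31% in control libraries with R-Roscovitine. Without it the ratio was 8.25%, 5.74% and 7.76% in SMA and 1.27%, 4.68% and 3.51% in control libraries. The SMA libraries lay above the control libraries in both treatments, while mt-Nd6 itself overlapped in both. The 3 other tRNA genes did not stand higher in SMA in both treatments. mt-Ta overlapped in both. Without treatment mt-Tl1 read 108, 96.2 and 107 FPKM in SMA and 116, 120 and 111 FPKM in control libraries, lower in SMA without overlap. Its log2 difference was -0.12 ± 0.15 (SE), adjusted p = 0.744 (limma). Of the 14954 tested features, which leave out loci as short as tRNA genes, 12.5% were lower in untreated SMA without overlap. With R-Roscovitine mt-Tl1 overlapped, and the log2 difference was -0.29 ± 0.15 (SE), adjusted p = 0.436 (limma). Without treatment mt-Ts1 read 123, 117 and 138 FPKM in SMA and 161, 128 and 71.8 FPKM in control libraries, with overlap. With R-Roscovitine it read 177, 118.3 and 199 FPKM in SMA and 81.4, 107 and 117.7 FPKM in control libraries, without overlap. Its log2 difference in that treatment was 0.68 ± 0.27 (SE), adjusted p = 0.306 (limma). Of the same 14954 features, 8.9% were higher in SMA without overlap with R-Roscovitine.

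**Figure D4:**
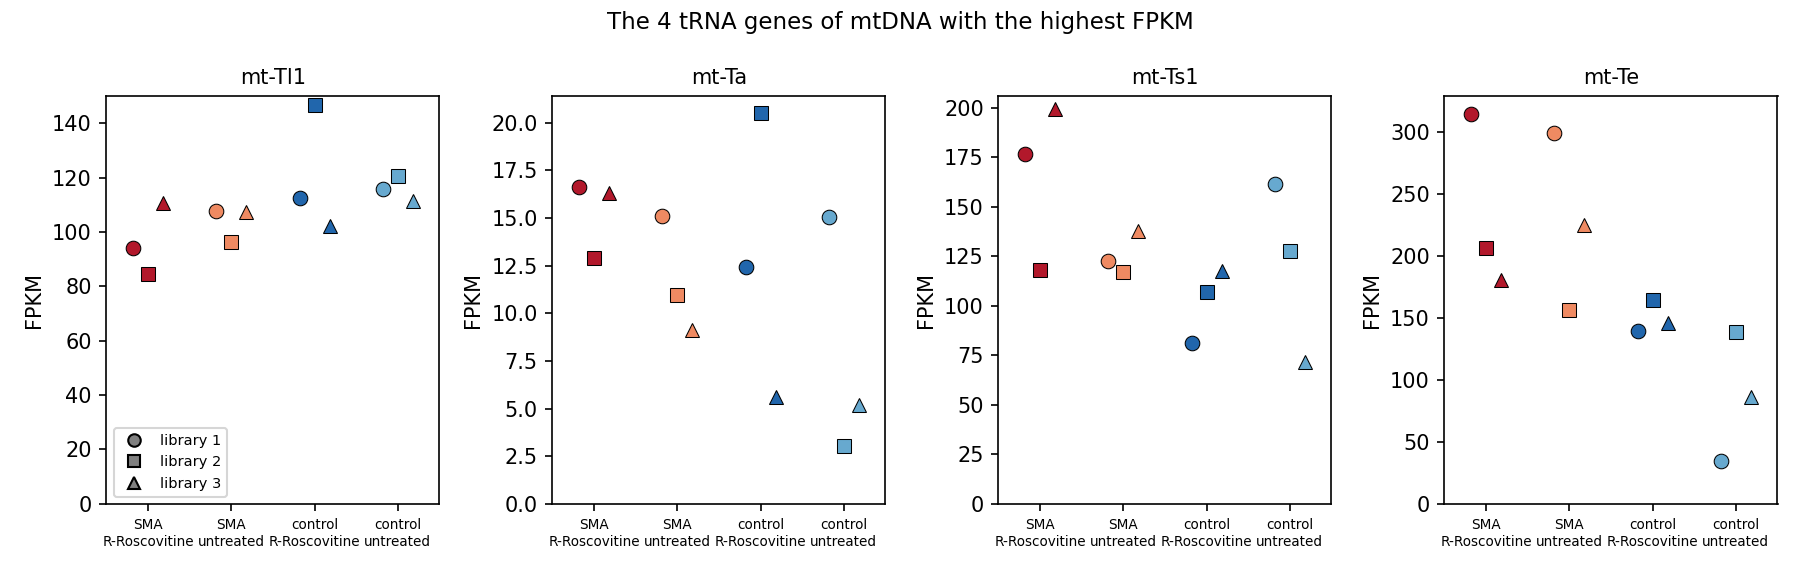
FPKM (y axis, from 0) of mt-Tl1, mt-Ta, mt-Ts1 and mt-Te in 12 libraries (x axis, 4 groups of 3; marker shape gives the library number). Only in the mt-Te panel do all SMA points lie above the control points of the same treatment in both treatments; in the mt-Ts1 panel they do so with R-Roscovitine alone.

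Ratios were taken between genes that share bases. mt-Atp8 stood at 27.3% to 32.2% of mt-Atp6, mt-Nd4l at 21.4% to 32.6% of mt-Nd4, and mt-Nd6 at 55.9% to 69.0% of mt-Nd5. The interval that Cufflinks gives with each value had a half-width of 4.13% to 4.43% in the 10 long genes that share at least 1 base with another gene, and 0.316% to 1.23% in the 5 that share none (mt-Co2, mt-Nd3, mt-Cytb, mt-Rnr1 and mt-Rnr2). This interval covers counting and assignment error only.

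The nuclear genome holds copies of mtDNA. A search of the annotated transcripts found 15 features outside mtDNA with at least 200 bases at 90% identity or more to a protein-coding or rRNA member, and 9 of them were in the tables. They took 1.19% to 1.497% of the FPKM sum. Gm10222, on chromosome 1 (24612404 to 24612700), matches mt-Nd4l without a mismatch over 294 bases and was listed at 98.5% to 99.2% of the FPKM of mt-Nd4l in every library. Reads from 2 such sequences cannot be told apart, so the level of mt-Nd4l is uncertain. The copies found without listed FPKM matched mt-Nd4, mt-Co3, mt-Atp6, mt-Co2, mt-Co1 or mt-Nd3 best. Their best matches had 99.7% to 100% identity over 345 to 876 bases. The levels of these genes carry the same uncertainty, and fragments placed on those copies could not be examined. Gm13341, a copy of mt-Co2, stood at 27.2% to 30.7% of it, Gm13340 at 9.25% to 9.65% of mt-Co1 and Gm4076 at 9.88% to 12.5% of mt-Nd5. The other 5 copies with listed FPKM were under 4% of their mtDNA gene. With the 9 copies added to the 13 genes, the difference in share between untreated SMA and control cultures was 2.30 points in place of 2.19, and R-Roscovitine in control cultures 2.06 in place of 1.98.

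**Figure D5:**
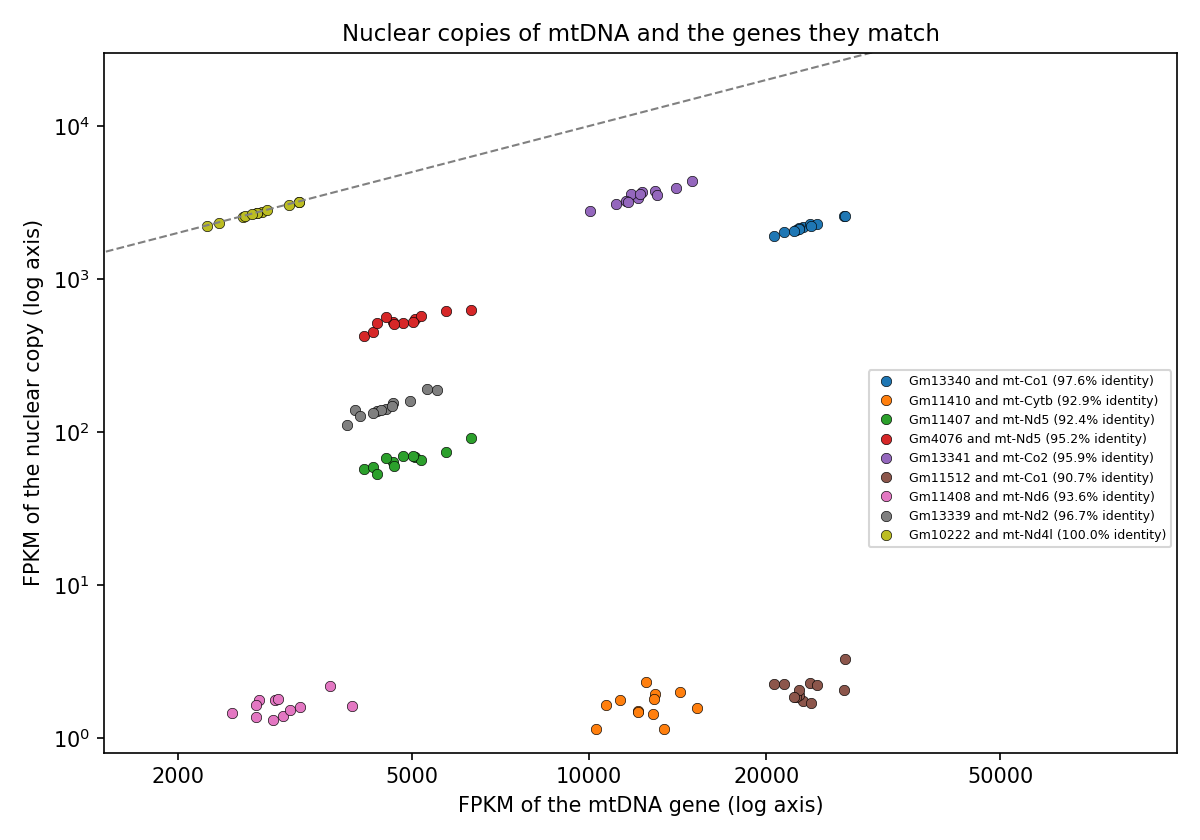
FPKM of 9 nuclear copies (y axis, log scale) against FPKM of the mtDNA gene each matches best (x axis, log scale); each point is 1 of 12 libraries, colour gives the copy, and the dashed line marks equal FPKM. Gm10222 lies on the line with mt-Nd4l, at 98.5% to 99.2% of it.

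The nuclear-encoded partners of these genes were described in the same way. In untreated SMA against control cultures the median log2 difference was 0.02 over 36 nuclear complex I genes, 0.01 over 9 of complex III, 0.00 over 11 of complex IV and 0.12 over 15 of complex V, none called. Averaged over treatments 1 was called, Atp5g2, a c-ring subunit of ATP synthase, with a log2 difference of 0.52 ± 0.12 (SE), adjusted p = 0.0358 (limma), where 3.04% of all features were called higher. Of 80 mitochondrial ribosomal proteins (median 0.06 without treatment), 1 was called in the averaged comparison, Mrps17, which was lower in SMA with a log2 difference of -0.36 ± 0.07 (SE) and an adjusted p of 0.0223 (limma); 1 of 80 is below the 1.81% of all features called lower. With each pair of libraries averaged the adjusted p was 0.164 for Atp5g2 and 0.181 for Mrps17, and neither was called. Of 10 genes used as measures of mitochondrial mass none was called in any comparison. Their median was -0.07 in untreated SMA against control cultures, 0.08 for R-Roscovitine in SMA and 0.02 for R-Roscovitine in control cultures.

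Of 16 tested genes of mtDNA transcription and replication, 8 had log2 differences above 0 and 8 below in untreated SMA against control cultures. Polrmt averaged 11.4 ± 1.5 FPKM in SMA and 14.4 ± 3.03 FPKM in control (SD, n = 3 each), with a log2 difference of -0.26 ± 0.18 (SE). Tfam was at 14.8 ± 2.30 FPKM in SMA and 16.2 ± 7.02 FPKM in control, Tfb2m had a log2 difference of 0.19 ± 0.15 (SE), and Tefm, the elongation factor, one of 0.38 ± 0.17 (SE). None was called. The helicase Twnk and the replicative polymerase Polg had log2 differences of -0.09 ± 0.19 and 0.17 ± 0.16 (SE). Polg2, the accessory subunit of that polymerase, was the 1 of these 16 genes called averaged over treatments, where 1.81% of all features were called lower. It was lower in SMA, with a log2 difference of -0.42 ± 0.11 (SE), adjusted p = 0.0492 (limma). With each pair of libraries averaged it was not called (adjusted p = 0.222, limma). Without treatment Polg2 had a mean of 1.34 FPKM in SMA libraries and of 2.19 FPKM in control libraries. Of 30 genes of mitochondrial RNA processing and turnover none was called. Among these Lrpprc had a log2 difference of -0.10 ± 0.13, Slirp of 0.20 ± 0.10 and the poly(A) polymerase Mtpap of -0.05 ± 0.18 (SE) without treatment.

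Markers of other cells moved with genotype. Averaged over treatments, 6 of 11 tested astroglia markers and 6 of 12 neural progenitor markers were called higher in SMA, against 3.04% of all features. With each pair of libraries averaged none of these 12 calls held (adjusted p from 0.164 to 0.203, limma). The averaged comparison also called 1 of 12 pan-neuronal markers (Syn1) and 2 of 10 tested interneuron markers (Gad1 and Slc6a5) lower in SMA. Chodl, 1 of 6 tested motoneuron markers, was called lower too, where 1.81% of all features were. Olig1, 1 of 5 tested oligodendrocyte markers, was called higher. With pairs averaged these calls were lost as well (adjusted p from 0.164 to 0.203, limma). The 12 astroglia markers summed to 234 to 476 FPKM in SMA and 147 to 208 FPKM in control libraries with R-Roscovitine, and to 273 to 457 FPKM in SMA and 163 to 207 FPKM in control libraries without it, with S100b under 1 FPKM in every library. Among SMA libraries, number 3 had the highest astroglia sum in both treatments (476 FPKM with and 457 FPKM without R-Roscovitine). It also had the highest neural progenitor sum in both (3903 and 3947 FPKM). SMA library 1, with the highest mtDNA share, had 375 and 364 FPKM of astroglia markers. Its sums of pan-neuronal markers (1252 and 993 FPKM) and oligodendrocyte markers (74.0 and 68.9 FPKM) were the highest of the SMA libraries in each treatment. Neural progenitor markers summed to 3062 to 3903 FPKM in SMA and 2189 to 3482 FPKM in control libraries with R-Roscovitine, and to 3023 to 3947 FPKM in SMA and 3353 to 3641 FPKM in control libraries without it. All 12 pan-neuronal markers had log2 differences below 0 in untreated SMA against control cultures, with 841 to 993 FPKM summed in SMA and 1009 to 1515 FPKM in control libraries. Of 10 tested interneuron markers 9 were below 0 in that comparison, with a median of -0.50. The part of these cell types in the mtDNA levels was not tested.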

How the data were processed

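Nucleospin columns were used for total RNA and a Lexogen mRNA-Seq kit for the libraries, per the labels' protocols. The GRCm38 build, Cufflinks 2.2.1, Trim Galore 0.4.0 and FastQC 0.10.1 appear in the submitters' processing notes. The authors deposited FPKM per gene, without counts; the aligner and strand settings are not given in the sources read. FPKM on several lines of 1 identifier were summed. The commonest low value of FPKM times locus length was taken as 1 fragment, which put depth at an estimated 19.5 to 28.7 M fragments per library; 36.2% to 39.1% of low values were within 0.02 of a whole number of fragments, so most were not whole and no count model was used.

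Median-of-ratios factors put the libraries on 1 scale, and values were tested as log2(scaled FPKM + 1), which understates the change of low genes, with limma 3.58.1 in R 4.3.3 (eBayes with trend, two-sided, 4 group means over 12 libraries, Benjamini-Hochberg adjusted p under 0.05). Tested features, 14954 in all, reached 1 FPKM in 3 or more libraries and had a locus of 200 bases or more; an alternative kept loci of every length (15114). The fit was tested on simulated data. Shares of the FPKM sum were compared by exact two-sided permutation of libraries. The 7 comparisons were SMA against control and R-Roscovitine against none, each within the other factor's levels and averaged, and the interaction. Treated and untreated libraries of the same genotype and number pair by the data alone: the correlation of their deviations from the group means was 0.238 to 0.598, over 0.1 in 6 of 6 pairs; fits with these pairs changed no treatment call. Groups were taken from the labels. Not every gene tested or called is named. Protein-coding and rRNA genes are named where results turn on them. The tRNA genes named are mainly those with high levels, called or at 0 in every library. Other genes are named mainly if called or part of a fixed set of regulators. The called astroglia and neural progenitor markers are given as counts only. The members and lists were chosen with earlier results of these data known. Sequences come from GENCODE M21; nuclear copies were found with BLAST 2.17.0 in its transcripts, since no genome sequence was used here. Python 3.11.15, pandas 2.3.3 and matplotlib 3.10.9 were used.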

Additional observations from a re-analysis of the deposited data

Results flagged for a closer look

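mt-Rnr2, the large-subunit rRNA, moved in opposite directions with R-Roscovitine in the genotypes: it was lower in the treated library in 3 of 3 same-numbered SMA pairs and higher in 3 of 3 control pairs. It read 2475, 1450 and 1647 FPKM with and 2585, 1531 and 1672 FPKM without R-Roscovitine in SMA cultures, and 2402, 2009 and 1524 FPKM with and 1182, 1892 and 1514 FPKM without it in control cultures. Most of the control difference lies in library 1. The moves in library 3 were small in both genotypes (from 1514 to 1524 FPKM in control and from 1672 to 1647 FPKM in SMA). The interaction was -0.45 ± 0.38 (SE) on the log2 scale, adjusted p = 0.9999 (limma), and was not called. It changed sign with library weights. The pattern was picked by direction alone among the mtDNA genes, and how many of all features show it was not counted. The share of the 2 rRNA genes followed the same pattern, but it includes mt-Rnr2 and so is not a separate result. Its R-Roscovitine difference was 0.141 percentage points lower in SMA than in control cultures (a difference of -0.141). That difference between the genotypes was not tested for the share. The other rRNA gene, mt-Rnr1, was higher in the treated library in 1 of 3 SMA pairs and in 3 of 3 control pairs.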

How the results depend on the processing

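In 6 of the 7 comparisons, all but the genotype difference averaged over treatments, no mtDNA gene was called under any setting tried, with 1 exception: with the replicate number as a block, which the data do not show to pair SMA with control libraries (3 of 6 correlations over 0.1), 1 gene was called between untreated SMA and control cultures, mt-Rnr1, adjusted p = 0.0407 (limma). Averaged over treatments the 1 call became 0 without a filter on low values, without scaling, with a common FPKM sum outside mtDNA, with pair means and, chosen after seeing the data, without SMA library 1 in both treatments; it became 3 with loci of every length, and 0 to 1 when each library was left out. For mt-Rnr1 in that comparison, 6 of 22 alternatives kept the call, with adjusted p from 0.0118 to 0.211. Quantile normalization called mt-Co1 lower in SMA instead (log2 -0.20, adjusted p = 0.0417) and turned the median for SMA against control with R-Roscovitine to -0.027, against 0.16, and brought it to 0.037, against 0.26, without treatment and to 0.013, against 0.20, averaged; it gives every library the same top values, which the 13 genes mostly hold. Library weights turned the median interaction to 0.0078, against -0.12, and that of mt-Rnr2 to 0.064, against -0.45. Leaving out each library gave differences in the 13-gene share of 1.21 to 2.95 points for SMA against control without and -0.50 to 1.31 with R-Roscovitine, and of 1.60 to 2.38 points for R-Roscovitine in control and -0.71 to 1.42 in SMA cultures; medians of R-Roscovitine in SMA ran from -0.077 to 0.14. Without SMA library 1 in both treatments the difference in share with R-Roscovitine was -0.50. The causes were not tested. With the replicate block the paired difference in share of untreated SMA against control stayed 2.19 points (exact sign-flip permutation p = 0.5). Depth limits the tRNA genes and other features near 1 FPKM.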
